A study of Rattus norvegicus with 6 samples.

Results

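The transcripts described here are assembled intergenic lncRNA transcripts of rat condylar cartilage, long RNAs that the authors' assembly placed outside every annotated gene (class code u) and that carry an assembly ID (MSTRG) in place of a gene name. They were taken from the lncRNA file by class code, ID and a mean level over the 6 libraries of at least 0.1 FPKM, the number of sequenced fragments scaled to transcript length and to library depth. Of 15530 lncRNA transcripts in the file, 12621 reached that minimum and 5382 of these were intergenic members. A total of 5461 transcripts had the class code and the ID, and 79 of them fell below the minimum. Around the minimum, MSTRG.25624.1 stood just under it with a mean of 0.0958 FPKM and MSTRG.29675.1 just above it with 0.103 FPKM, and each was listed in only 1 library.

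The samples were condylar cartilage of the temporomandibular joint from female Sprague-Dawley rats that were 6 weeks old at the start and were killed 8 weeks later. The CON group had 3 libraries from control rats, and the UAC group had 3 libraries from rats with a unilateral anterior crossbite, a dental intervention under which the joint bears abnormal load. All libraries were made from total RNA after removal of ribosomal RNA. The number of animals behind each library is not stated in the labels or methods, so p-values measure only the spread between these libraries, which may be partly technical.

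Long non-coding RNAs are transcripts without a recognised protein-coding frame, and intergenic ones lie between annotated genes. Known lncRNAs can act on chromatin, on splicing, on nuclear bodies or as binding partners of proteins and microRNAs, but for most assembled intergenic transcripts no role is known. Short unspliced transcripts of this kind can also be pieces of longer units, the ends of neighbouring genes or regulatory transcripts from promoters and enhancers, and an assembly alone does not separate these.

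Gene count totals lay between 71524713 and 86523541 reads per library, and the lowest totals were those of UAC replicates 1 and 3. Cartilage markers were well detected, with a summed level of 1948 to 2982 FPKM in CON and 1542 to 3185 FPKM in UAC over 12 genes, of which Matn1 was at or near absence. Markers of other tissues were present as well: the 7 bone genes summed to 4002 to 4653 FPKM in CON and 3285 to 3864 FPKM in UAC, and the 8 marrow and blood genes to 4043 to 6401 FPKM in CON and 5969 to 6996 FPKM in UAC. Skeletal muscle genes (8 of 10 found) were highest in UAC replicate 1, at 253 FPKM, against 25.7 to 164 FPKM in the other libraries. In bulk RNA, fewer cells of a type and less RNA per cell cannot be told apart.

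Most members were short, unspliced and low. Of the 5382, 4287 (79.7%) had 1 exon and 1095 had 2 or more: 904 had 2 exons, 132 had 3 and 38 had 4, and the highest number was 9. The median length was 692.5 bases, with quartiles of 337 and 2381 bases and a range from 201 to 88221 bases. The median of the mean level was 1.38 FPKM, with quartiles of 1.06 and 1.85 FPKM, and 3107 members (57.7%) lay between 1 and 2 FPKM. Only 58 members reached 10 FPKM. In each library 5141 to 5194 members were above the value that the files list for absence (0.0001 FPKM), and 4786 (88.9%) were above it in all 6 libraries.

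Exon number and strand split the members into 3 kinds. The first kind, 3474 transcripts of 1 exon without an assigned strand, had a median length of 459 bases and a median level of 1.27 FPKM. The second, 813 transcripts of 1 exon with a strand, had a median length of 2727 bases and a median level of 2.01 FPKM. The third, the 1095 spliced transcripts, had a median length of 2183 bases and a median level of 1.60 FPKM. The kinds also differed in how steady their levels were: the median SD within groups on log2(FPKM + 0.1) was 0.51 for members without a strand, 0.27 for those of 1 exon with a strand and 0.43 for spliced ones. Beside them, the 5083 tested intronic transcripts (class code i) had a median level of 1.66 FPKM, a median length of 1727 bases and 1 exon in 68.6%, and the 617 tested known lncRNA transcripts had a median level of 0.39 FPKM, a median length of 906 bases and 1 exon in 5.35%. The share without a strand was 64.5% among members and 37.9% among intronic transcripts. These are descriptions of the assembly with no test.

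**Figure D1:**
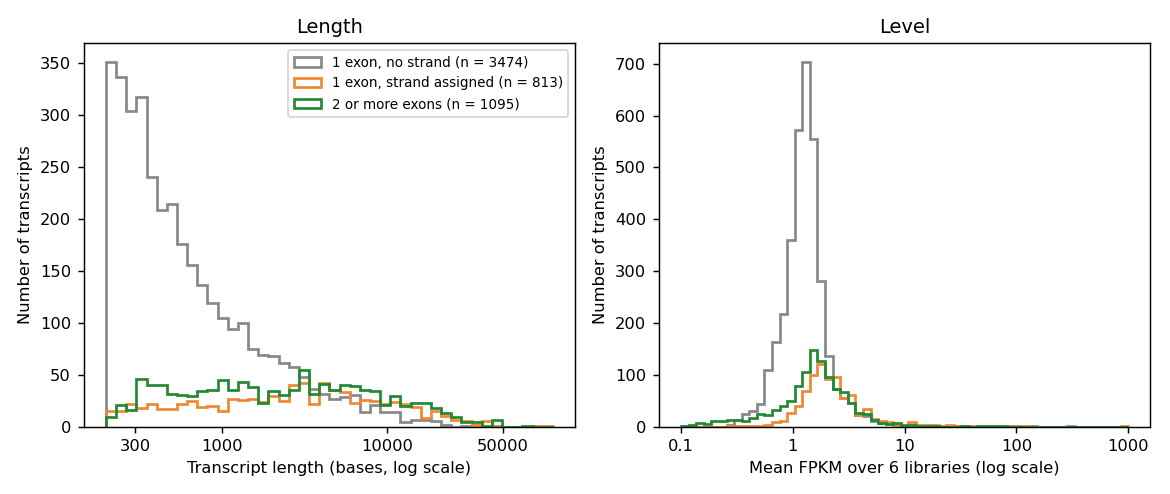
Distribution of transcript length (left, bases, log scale) and of mean FPKM over the 6 libraries (right, log scale) for the 3 kinds of members; each line is a count of transcripts per bin. The 3474 members of 1 exon without strand pile up at short lengths and between 1 and 2 FPKM, while the other kinds reach longer lengths and higher levels.

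The coding-potential filters of the authors bound the members: the CPC score, which runs towards 1 for coding sequence, had a median of 0.0444 and a highest value of 0.492, and every CNCI score was below 0. Members fell into 5165 assembled loci. A total of 4964 members were the sole transcript of their locus, 157 loci held 2 or more members, and 14 members sat in a locus that also holds an Ensembl transcript. A member began within 5000 bases of the preceding one on the same strand in 1087 cases, and such members may be pieces of 1 transcription unit.

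The highest levels were held by a few short unspliced transcripts. MSTRG.9652.1 (chr14:46517784-46518369, + strand, 586 bases) was at 1197, 1020 and 715 FPKM in CON and at 609.8, 1365 and 917 FPKM in UAC. The next member on the chromosome, MSTRG.9653.1 (1099 bases), was at 86.6, 121 and 83.4 FPKM in CON and at 65.0, 111 and 304 FPKM in UAC. The groups of both overlapped. The genome build behind these positions is not given in the sources used here.

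On chromosome 1, the neighbours MSTRG.1154.1 (chr1:11973408-11973826, no strand) and MSTRG.1156.1 (chr1:11971413-11973055, - strand) varied strongly between libraries of a group. In CON, MSTRG.1154.1 reached 454 and 372 FPKM in replicates 1 and 2 and was absent in replicate 3, and in UAC it was at 240.4, 356 and 305 FPKM. Conversely, MSTRG.1156.1 was absent in CON replicate 1, at 2.64 FPKM in replicate 2 and at 409 FPKM in replicate 3, and in UAC it was at 342, 2.96 and 0.75 FPKM. Read counts of the first locus were 17911, 13913 and 0 in CON and 7995, 14137 and 10056 in UAC, and those of the second were 0, 387 and 62615 in CON and 44552, 461 and 98 in UAC. In CON a library high for one was low for the other, whereas in UAC replicate 1 both were high. With MSTRG.23822.1 (absent, 116 and 24.2 FPKM in CON, and 5.36 FPKM in UAC replicate 2 alone), they had the highest SD within groups among members of at least 1 FPKM, 4.91, 5.35 and 4.45 on log2(FPKM + 0.1).

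Ribosomal RNA genes lie near several of these transcripts. A total of 156 members were within 100000 bases of a gene that the files name as 5.8S ribosomal RNA, a part of the large ribosomal subunit, and these 156 held 14.4% to 19.3% of the summed FPKM of all members in each library. They include MSTRG.9652.1, MSTRG.9653.1, MSTRG.1154.1, MSTRG.1156.1 and MSTRG.23822.1. Their share was 17.9%, 18.1% and 14.4% in CON and 15.2%, 19.3% and 17.7% in UAC, so the groups overlapped. This set was chosen after its values were seen and has no test, and its part in the levels was not tested.

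Other abundant members were steady. MSTRG.22750.1 (chr5:138042658-138043136, no strand) was at 99.3, 107 and 116 FPKM in CON and at 96.4, 103 and 122 FPKM in UAC. MSTRG.16634.1 (chr2:236454501-236457893, + strand, 3393 bases) was at 98.2, 97.8 and 100.001 FPKM in CON and at 83.0, 96.9 and 99.6 FPKM in UAC. MSTRG.5111.1 (336 bases, chromosome 10) was at 89.4, 87.2 and 112 FPKM in CON and at 101, 90.4 and 72.1 FPKM in UAC. All 3 had overlapping groups, and none passed limma's test, with adjusted p-values of 0.999, 0.947 and 0.918.

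MSTRG.1346.1 (chr1:36361171-36361394, 224 bases, no strand) was the only one of the 8 most abundant members that lay apart between the groups. It was at 226, 214 and 321 FPKM in CON and at 107, 4.96 and 9.80 FPKM in UAC, a log2 change of -3.83 ± 1.08 (SE, n = 3 against 3) with a limma adjusted p of 0.663. Its locus held 4777, 4281 and 6696 reads in CON and 1908, 106 and 173 in UAC, and edgeR's quasi-likelihood test gave an adjusted p of 0.538. The nearest protein-coding gene, Srd5a1, a steroid 5-alpha reductase, ends 6415 bases away and was at 0.94 to 1.32 FPKM over the 6 libraries.

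The steadiest members were longer. MSTRG.25827.1 (5612 bases, chromosome 7) was at 3.655, 3.654 and 3.653 FPKM in CON and at 3.97, 4.11 and 3.98 FPKM in UAC, an SD within groups of 0.019 on log2(FPKM + 0.1). MSTRG.27577.1 (5163 bases, chromosome 8) was at 1.97, 1.99 and 1.93 FPKM in CON and at 2.40, 2.31 and 2.36 FPKM in UAC, and MSTRG.1256.2 (8465 bases, chromosome 1) at 5.64, 5.81 and 5.65 FPKM in CON and at 5.36, 5.47 and 5.55 FPKM in UAC. On the deposited FPKM, all UAC values of the first 2 lay above all CON values, and those of the last lay below. Their limma adjusted p-values were 0.717, 0.689 and 0.812. Choosing members by a low SD within groups makes such an order easier to reach. Over all tested lncRNA transcripts it was seen in 11.1% with UAC higher and in 3.61% with UAC lower.

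The longest member, MSTRG.29674.1 (88221 bases in 1 exon, chr9:110227959-110316179), overlaps an assembled locus on the opposite strand that joins Efna5, a ligand of Eph receptors, with AABR07068587. It was at 3.08, 2.77 and 3.07 FPKM in CON and at 2.27, 2.50 and 3.43 FPKM in UAC. MSTRG.14428.1 (77828 bases, chromosome 19) was at 1.60, 1.54 and 1.05 FPKM in CON and at 1.99, 1.82 and 1.85 FPKM in UAC, and MSTRG.5624.1 (66050 bases in 2 exons, chromosome 10) at 0.76, 0.30 and 1.52 FPKM in CON and at 1.95, 1.12 and 1.44 FPKM in UAC. None of these passed the test (limma adjusted p of 0.827, 0.689 and 0.717).

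Among the spliced members, MSTRG.2474.1 (1309 bases, chr1:122854172-122859719) had the most exons, 9, and was at 3.44, 2.19 and 2.70 FPKM in CON and at 2.62, 3.63 and 3.43 FPKM in UAC. It starts 122036 bases from Ndn, an imprinted gene that encodes necdin. MSTRG.591.1 on the X chromosome had 7 exons and 11141 bases, and was at 2.35, 2.23 and 2.36 FPKM in CON and at 2.38, 2.77 and 2.67 FPKM in UAC. Of the 4 members with 6 exons, MSTRG.25389.1 had the highest level, at 2.49, 3.26 and 3.19 FPKM in CON and 3.38, 1.21 and 1.95 FPKM in UAC.

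Position relative to protein-coding genes depended on the kind. Of all members, 722 (13.4%) overlapped the span of a protein-coding gene of the gene file although they were classed as intergenic (those spans include the assembled extensions of genes), 1722 (32.0%) lay within 5000 bases and 3440 (63.9%) within 50000 bases. The median distance was 29385 bases for members without a strand, 2847 bases for those of 1 exon with a strand and 8961 bases for spliced ones. Without a strand, 122 members lay within 1000 bases before a gene's start and 24 within 1000 bases beyond its 3′ end.

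Members of 1 exon with a strand were mostly on the opposite strand where they overlapped a protein-coding gene or lay beyond its 3′ end. Genes in the member's own assembled locus and transcripts of other class codes were not counted. The counts may therefore miss overlaps on the same strand. Of the members of 1 exon with a strand that overlapped a protein-coding span, 194 were on the opposite strand and 34 on the same strand. Within 1000 bases beyond the 3′ end, 50 were opposite and 15 the same, whereas within 1000 bases before the start 30 were opposite and 40 the same. Spliced members before a start were opposite in 53 cases and on the same strand in 17. For the 50 opposite-strand members beyond a 3′ end, the median level was 3.95 FPKM beside a median of 5.87 FPKM for the genes, and the median SD within groups was 0.19. Over the 6 libraries the Pearson correlation with the neighbouring gene on log2(FPKM + 0.1) had a median of 0.46 for these 50, against 0.15 over all members and 0.07 over the 1942 members farther than 50000 bases from a gene. These correlations share libraries and depth and are given as a description. Whether reads of the gene were assigned to the other strand was not tested.

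The most abundant of these neighbours was MSTRG.16634.1, given above, 86 bases from Sgms2, a sphingomyelin synthase that was at 113, 110.3 and 114 FPKM in CON and at 93.2, 103 and 112 FPKM in UAC. MSTRG.21271.1 lay 512 bases from Cd4, the T-cell co-receptor also found on rat macrophages, at 39.9, 40.04 and 41.7 FPKM in CON and 38.0, 24.5 and 37.7 FPKM in UAC. MSTRG.23711.1, 220.0 bases from Fosl2, a subunit of the transcription factor AP-1, was at 23.4, 23.9 and 24.4 FPKM in CON and at 22.7, 23.9 and 23.7 FPKM in UAC. These members had overlapping groups except MSTRG.21271.1, which was lower in UAC throughout. MSTRG.9380.1, 2 bases from Scarb2, a lysosomal membrane protein, stayed between 13.2 and 13.9 FPKM in all libraries. MSTRG.27295.1 beside Cadm1, a cell adhesion molecule, was at 24.6, 23.1 and 28.7 FPKM in CON and at 31.1, 22.7 and 32.4 FPKM in UAC. Among the 8 most abundant members of this position, 3 had every UAC library above every CON library on the deposited FPKM. Of all tested lncRNA transcripts 11.1% had this order, and 3.61% had UAC lower throughout, as MSTRG.21271.1 did. These 8 were chosen after their values were seen, and the difference from those shares was not tested. MSTRG.21825.1, 61 bases from the stress-response gene Tp53inp1, was at 16.7, 16.9 and 19.1 FPKM in CON and at 22.6, 19.6 and 20.9 FPKM in UAC. MSTRG.12119.1, beside LOC681410, was at 12.54, 13.1 and 13.1 FPKM in CON and at 13.6, 17.3 and 14.4 FPKM in UAC. MSTRG.21906.1, 176 bases from Cpne3, a copine, was at 11.3, 12.003 and 11.5 FPKM in CON and at 16.7, 13.9 and 15.04 FPKM in UAC. None of the 8 passed limma's adjustment (adjusted p of 0.616 and above).

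The 4 members closest to a marker gene of the tissue lists had overlapping groups. MSTRG.14799.1 (220.0 bases, no strand) lay 8954 bases before the start of Hapln1, the link protein of cartilage aggrecan, and was at 1.70, 1.89 and 0.75 FPKM in CON and at 1.20, 0.94 and 0.43 FPKM in UAC (limma adjusted p of 0.749). MSTRG.9424.1 and MSTRG.9423.1 lay 11048 and 17300 bases from Jchain, the joining chain of IgM and IgA, with means of 2.09 and 2.66 FPKM and log2 changes of 0.07 ± 0.17 and -0.04 ± 0.12 (SE). MSTRG.3591.1 lay 17779 bases from the muscle gene Actn3 and was at 2.17, 1.78 and 3.44 FPKM in CON and at 2.29, 4.16 and 3.81 FPKM in UAC.

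The comparison of UAC with CON asks which of these transcripts change with abnormal loading of the joint. The UAC minus CON shift on log2(FPKM + 0.1) had a median of 0.09 over the members and 0.09 over all tested lncRNA transcripts, and 3188 members (59.2%) were higher in UAC. The shift followed the libraries: the median FPKM of members was 1.38, 1.36 and 1.43 in CON and 1.64, 1.35 and 1.62 in UAC, so the shallower UAC replicates 1 and 3 lay above every CON library and UAC replicate 2 lay below them. Median read coverage per base, which the authors did not scale to depth, was 9.78, 9.11 and 9.99 in CON and 9.74, 9.58 and 9.56 in UAC. With median-ratio scaling the median shift was -0.002, and with coverage in place of FPKM it was -0.03. UAC replicates 1 and 3 held the highest value of 1443 and 1277 members, against 597 to 763 for each of the other libraries.

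**Figure D2:**
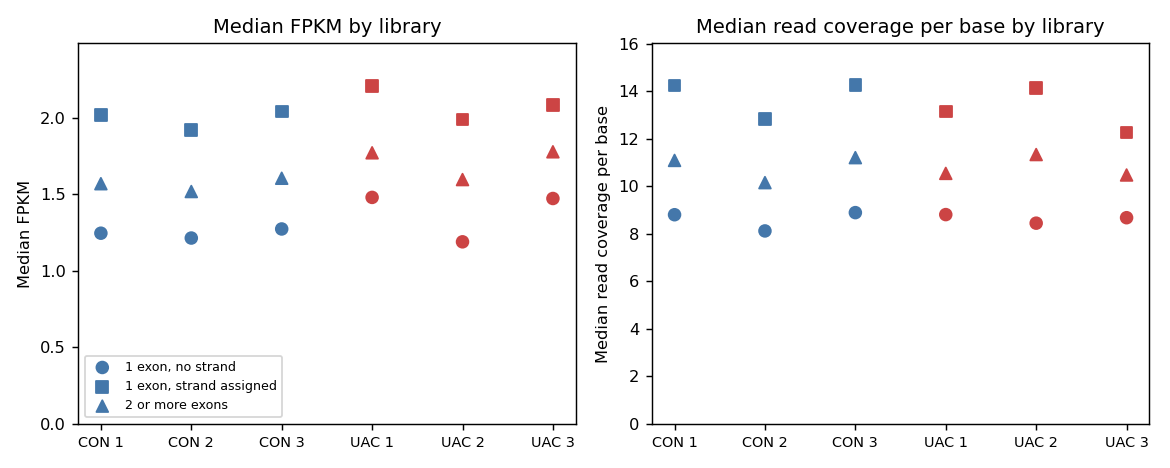
Median FPKM (left) and median read coverage per base (right) of the members in each of the 6 libraries, by kind of member; circles, squares and triangles are the 3 kinds, blue is CON and red is UAC. Median FPKM of the members without a strand is 1.48 and 1.47 in UAC replicates 1 and 3 against 1.19 to 1.27 elsewhere, while their median coverage stays between 8.12 and 8.89.

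No member passed limma's test at an adjusted p under 0.05, and 416 had an unadjusted p under 0.05. Over all 12621 tested lncRNA transcripts 1 passed (0.00792%), and 917 had an unadjusted p under 0.05. The count among members was 1 with a pseudocount of 1, 2 with no minimum level, 2 without CON replicate 1 and 1 without UAC replicate 2.

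The study's own criteria were p below 0.05 before adjustment together with a log2 change beyond 1 in either direction. By them 128 members were higher in UAC (2.38%, against 1.93% of all tested lncRNA transcripts) and 55 were lower (1.02% against 0.864%). Members are themselves among the tested transcripts, and over the 7239 others the shares were 1.59% and 0.746%. The difference was not tested. All 3 UAC libraries lay above all 3 CON libraries in 559 members (10.4%, against 11.1% of all tested) and below them in 207 (3.85% against 3.61%). The split of higher and lower depends on the scaling. Of the members past the thresholds, 69.9% were higher with the deposited FPKM and 56.5% with median-ratio scaling. With coverage, which is not scaled to depth, the share was 54.1%. Without UAC replicate 1, 121 members were higher and 84 lower, and without UAC replicate 3, 125 and 76.

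**Figure D3:**
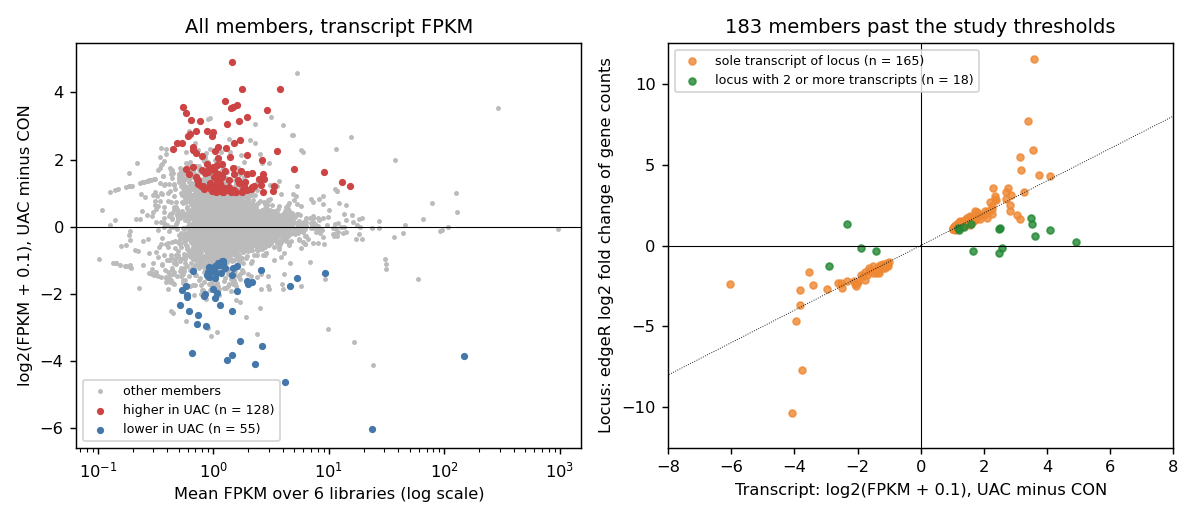
Left, log2(FPKM + 0.1) UAC minus CON against mean FPKM (log scale) for the 5382 members, with 128 higher and 55 lower members past those criteria in colour; right, for these 183 members, the transcript change against edgeR's log2 fold change of the counts of their locus; the dotted line marks equal values. Past the criteria in both were 122 of 165 sole transcripts, for which both values measure the same feature, and 8 of 18 members of loci with 2 or more transcripts.

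Members past the thresholds were short and low. Those that were higher had a median length of 385 bases and a median level of 1.17 FPKM, and those that were lower had 277 bases and 1.13 FPKM. Of the spliced members 39 (3.56%) were higher and 7 (0.639%) lower, of those without a strand 82 (2.36%) and 44 (1.27%), and of those of 1 exon with a strand 7 (0.861%) and 4 (0.492%), beside the 1.93% and 0.864% of all tested. The share of members with groups apart and UAC higher rose with length on the deposited FPKM: 5.64% of members under 300 bases, 8.11% of those from 300 to under 1000 bases, 12.6% of those from 1000 to under 5000 bases and 19.2% of those of 5000 bases and over. The shares with UAC lower were 4.49%, 3.73%, 4.45% and 2.05% in the same order. Over all tested lncRNA transcripts 11.1% were apart with UAC higher and 3.61% with UAC lower, and over the intronic ones 12.8% and 3.13%. Whether the rise with length is particular to members, or holds under other scalings, was not tested. The balance of the 2 directions depends on the scaling, since over all members 373 were higher and 351 lower with median-ratio scaling. With coverage, which is not scaled to depth, 263 were higher and 397 lower.

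The gene file holds read counts for the assembled loci, a second quantification of the same reads. With edgeR's quasi-likelihood test over 30668 genes, 118 of the 5165 member loci were higher in UAC at the study's thresholds (2.28%, against 1.2% of all genes tested) and 48 were lower (0.93% against 0.681%). At an adjusted p under 0.05 edgeR called 2 member loci, against 6 of all genes (0.0196%), and DESeq2 called 56 of the 5063 member loci to which it gave an adjusted p (1.11%, against 1.22% of all genes), of which 41 were higher and 15 lower. All 56 had the same direction in edgeR and an unadjusted edgeR p under 0.05. Of the 183 members past the thresholds as transcripts, 179 changed in the same direction as their locus and 130 were past the thresholds in both. Among the 165 that were the sole transcript of their locus the direction was shared by 165, and among the 18 in loci with 2 or more transcripts by 14. A sole transcript and its locus are the same feature, so the shared direction of the 165 is no separate support.

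Both loci at adjusted p held spliced members. MSTRG.15267.1 (chr2:79220101-79224101, - strand, 2 exons, 3882 bases) was absent in CON and at 1.30, 0.98 and 1.02 FPKM in UAC. Its locus had 0 reads in each CON library and 400, 362 and 313 reads in UAC, at least 392-fold higher against a floor of 3 reads over the CON group, with an edgeR adjusted p of 0.0287. It lies within the span of an assembled locus on the same strand that joins Fbxl7, an F-box protein of ubiquitin ligases, with AABR07008916. That joined locus was at 3.66, 4.17 and 3.77 FPKM in CON and at 3.21, 3.62 and 3.66 FPKM in UAC. As a transcript MSTRG.15267.1 had a log2 change of 3.58 ± 0.56 (SE) with a limma adjusted p of 0.269.

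MSTRG.3687.1 (chr1:221728932-221732552, + strand, 2 exons, 2857 bases) was at 1.23, 1.36 and 1.58 FPKM in CON and at 0.24, 0.24 and 0.29 FPKM in UAC. Its locus had 330.0, 346 and 421 reads in CON and 56, 65 and 64 reads in UAC, an edgeR log2 fold change of -2.47 ± 0.19 (SE) with an adjusted p of 0.0334. It ends 88 bases before the start of Sf1, a splicing factor that recognises the branch point, on the same strand, and Sf1 itself was at 10.5, 9.95 and 11.4 FPKM in CON and at 11.7, 9.34 and 9.79 FPKM in UAC. For MSTRG.15267 the adjusted p was 0.0196 to 0.0327 when a CON library was left out and 0.0728 to 0.0931 when a UAC library was left out. For MSTRG.3687 it was 0.0605 to 0.143 over the 6 libraries left out in turn.

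The smallest transcript p belonged to MSTRG.12659.1 (chr17:49941459-49954915, - strand, 2 exons, 8577 bases). It was listed as absent in all CON libraries and at 2.97, 2.81 and 2.95 FPKM in UAC, a log2 change of 4.91 ± 0.44 (SE, n = 3 against 3) with a limma adjusted p of 0.0987. It was the only member absent throughout a group and at 1 FPKM or more in every library of the other. Its locus holds 4 transcripts and the symbol Mplkip, and the locus did not pass the test on counts, with 3144, 2640 and 3070 reads in CON and 3649, 2990 and 3150 reads in UAC, a log2 fold change of 0.25 ± 0.12 (SE) and an edgeR adjusted p of 0.589. MSTRG.12659.2, a transcript of that locus with another class code whose span overlaps the member, went the other way, from 3.14, 2.81 and 3.03 FPKM in CON to 1.78, 0.55 and 1.31 FPKM in UAC. With a pseudocount of 1 in place of 0.1 the member's adjusted p was 0.0179. Cdk13, a cyclin-dependent kinase whose span covers the member on the opposite strand, was at 3.67 to 4.62 FPKM over the 6 libraries.

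In loci with several transcripts, members varied more between libraries of a group than the loci did. Over the 418 members in 201 such loci the median SD within groups was 0.95 on log2(FPKM + 0.1), and over the loci themselves 0.25, whereas the 4964 sole transcripts had 0.45. The locus with the most members, MSTRG.3005 on chromosome 1, held 10, of which MSTRG.3005.6 alone ranged from absence to 7.498 FPKM, while the locus had 1127, 1004 and 755 reads in CON and 929, 1944 and 852 in UAC. The 7 members of MSTRG.3656, also on chromosome 1, were 15968 to 21460 bases long and replaced each other from library to library. MSTRG.3656.6 was at 17.6 FPKM in CON replicate 1 and 11.98 FPKM in UAC replicate 1 and at 1.42 FPKM or less elsewhere. MSTRG.3656.9 was at 7.32 FPKM in CON replicate 2 and 41.9 FPKM in UAC replicate 2 and absent elsewhere. Summed, the 7 members were at 24.8, 34.9 and 13.6 FPKM in CON and at 46.7, 54.1 and 19.0 FPKM in UAC, with overlapping groups.

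Further members with the groups apart were the following, by the smallest unadjusted p. MSTRG.28078.1 (454 bases, chromosome 8) was at 1.36, 1.59 and 1.001 FPKM in CON and at 3.68, 3.67 and 3.48 FPKM in UAC, a log2 change of 1.41 ± 0.18 (SE). MSTRG.22637.1 (754 bases, chromosome 5) was at 1.05, 0.82 and 0.91 FPKM in CON and at 2.60, 3.98 and 2.37 FPKM in UAC, a log2 change of 1.56 ± 0.24. Neither passed the adjustment (limma adjusted p of 0.263 and 0.269). Each is the sole transcript of its locus, so the counts measure the same feature. By counts the edgeR log2 fold changes were 1.40 and 1.64, with adjusted p-values of 0.441 and 0.423.

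In the other direction, MSTRG.10767.1 (218 bases, chromosome 15) was at 0.86, 1.38 and 1.65 FPKM in CON and absent in UAC. Reads at its locus numbered 18, 27 and 34 in CON, while all UAC libraries had 0, which is at least 24.1-fold lower by the floor of 3 reads over the group, with an edgeR adjusted p of 0.423. MSTRG.4718.1 (336 bases, chromosome 10), 286 bases before the start of Slit3, a secreted guidance ligand, was at 4.62, 5.83 and 5.02 FPKM in CON and at 3.07, 2.48 and 3.39 FPKM in UAC, and Slit3 was at 19.4, 19.0 and 15.3 FPKM in CON and at 18.3, 16.3 and 18.3 FPKM in UAC. The spliced MSTRG.15164.1 (967 bases, chromosome 2) was at 5.59, 5.01 and 5.41 FPKM in CON and at 3.22, 3.59 and 4.01 FPKM in UAC. MSTRG.4289.1 and MSTRG.27150.1 were at 4.05, 1.89 and 1.66 FPKM and at 3.48, 1.72 and 2.90 FPKM in CON, and each was above absence in only 1 UAC library, at 0.28 and 0.61 FPKM. The limma adjusted p-values of these 5 members lay between 0.269 and 0.603.

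**Figure D4:**
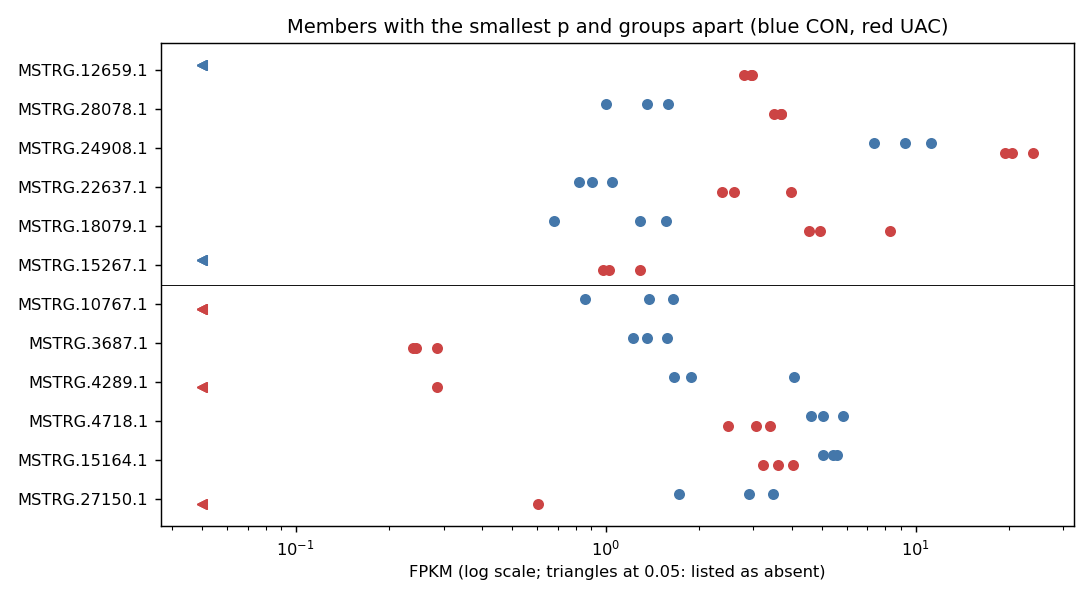
FPKM (log scale) in each library for the 12 members, 6 per direction, with the smallest unadjusted p among those with groups apart and a mean of at least 0.5 FPKM; each point is a library, blue is CON and red is UAC, and triangles are libraries in which the member is listed as absent. In the upper 6 every red point lies to the right of every blue point, and in the lower 6 to the left; the rule that chose them fixes this order.

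MSTRG.24908.1 (chr6:141258162-141258640, - strand, 2 exons, 393 bases) and MSTRG.18079.1 (chr3:18502012-18547094, 3 exons, 294 bases) complete the 6 with the smallest p among higher members. The first was at 7.34, 9.24 and 11.2 FPKM in CON and at 20.4, 23.9 and 19.4 FPKM in UAC, a log2 change of 1.20 ± 0.17 (SE), and the second at 0.68, 1.29 and 1.56 FPKM in CON and at 8.25, 4.93 and 4.54 FPKM in UAC, a log2 change of 2.25 ± 0.35. Both had a limma adjusted p of 0.269. The first lies among genes that the gene file annotates with immunoglobulin production or with recognition in phagocytosis, terms carried by the genes for antibody chains, which B cells and plasma cells make. It overlaps on the same strand an assembled locus that joins AABR07065782 with AABR07065789. That locus was at 4.18, 5.08 and 7.72 FPKM in CON and at 8.81, 9.36 and 8.95 FPKM in UAC (edgeR adjusted p of 0.514). The second had 0 genes so annotated within 100000 bases, but lies inside the span of the chromosome 3 members of the set described next.

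A total of 27 members lay within 100000 bases of at least 2 genes with such an annotation. Of them 12 were on chromosome 6, 7 on chromosome 3, 4 on chromosome 4 and 1 on chromosome 11. The rest were MSTRG.10614.1 and MSTRG.10615.1 on chromosome 15 and MSTRG.690.1 on the X chromosome. Annotation alone placed members in the set, and whether the genes beside each of them encode antibody chains was not tested. This set was formed after its values were seen and has no test. Of the 27, 18 were spliced, with a median length of 387.5 bases, and 16 of these 18 had a higher mean of log2(FPKM + 0.1) in UAC. At the study's thresholds 7 of the 27 were higher and 0 lower, beside 1.93% and 0.864% of all tested transcripts. The groups lay apart with UAC higher in 10 and lower in 1 (MSTRG.24837.1), beside 11.1% and 3.61% of all tested, and the median log2 change was 0.68, beside 0.09 over all tested transcripts. Summed over the 18 spliced members, the level was 37.9, 65.2 and 60.2 FPKM in CON and 102, 112 and 99.2 FPKM in UAC, and the groups did not overlap.

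Single members of this set were as follows. MSTRG.18097.1 (chr3:19732281-19732787, 379 bases) was at 5.73, 10.5 and 6.51 FPKM in CON and at 16.9, 17.6 and 21.4 FPKM in UAC, a log2 change of 1.33 ± 0.23 (SE). MSTRG.24916.1 (chr6:142128744-142129254, 416 bases) was at 0.36, 0.89 and 0.88 FPKM in CON and at 3.03, 3.51 and 3.13 FPKM in UAC, a log2 change of 2.12 ± 0.34. MSTRG.24929.1 (362 bases, chromosome 6) was at 1.11, 1.37 and 1.35 FPKM in CON and at 3.69, 2.73 and 2.44 FPKM in UAC. MSTRG.24888.2 and MSTRG.24904.1 had overlapping groups and log2 changes of -0.15 ± 0.26 and -0.24 ± 0.46. None passed limma's adjustment. These members were chosen after their values were seen.

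Levels of B-cell and plasma-cell markers moved beside this set. Jchain was at 41.3, 54.0 and 70.4 FPKM in CON and at 132, 133 and 97.1 FPKM in UAC, and Mzb1, a chaperone of antibody secretion, at 3.65, 3.83 and 4.597 FPKM in CON and at 7.47, 9.27 and 6.02 FPKM in UAC. Cd79a, a part of the B-cell receptor, was at 12.4, 13.4 and 16.1 FPKM in CON and at 17.9, 16.0 and 9.66 FPKM in UAC, and overlapped. The 5 markers summed to 71.6 to 110.2 FPKM in CON and 122 to 179 FPKM in UAC, and none was at absence. The lists of other cell types also lay apart in places: T and NK cell markers summed to 1.66 to 2.86 FPKM in CON and 4.04 to 7.27 FPKM in UAC, adipocyte markers to 4.03 to 5.47 FPKM and 5.48 to 14.4 FPKM, and macrophage markers to 147 to 166 FPKM and 119 to 138 FPKM. The part of any of these cells in the levels of the members was not tested. Without the 27 members, 121 members were higher at the study's thresholds and 55 lower, and of the spliced ones 32 and 7.

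**Figure D5:**
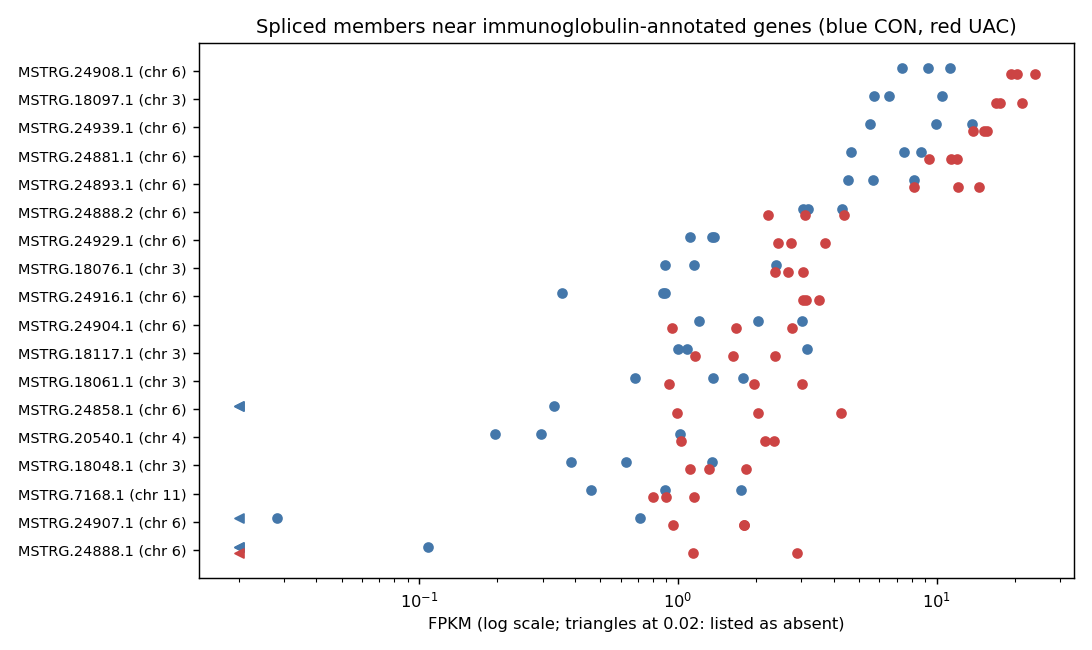
FPKM (log scale) in each library for the 18 spliced members within 100000 bases of at least 2 genes with these annotations, ordered by mean level; each point is a library, blue is CON and red is UAC, and triangles are libraries in which the member is listed as absent. MSTRG.24908.1 and MSTRG.18097.1 at the top lie apart between the groups, and MSTRG.24888.2, MSTRG.24904.1 and MSTRG.18117.1 overlap.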

How the data were processed

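Per transcript, the authors deposited FPKM for lncRNAs, with absence written as 0.0001, and mean read coverage, which StringTie does not scale to depth (5.89 to 7.10 units of coverage for 1 FPKM in a library). Per the file headers, CPC and CNCI coding-potential scores stand beside them. For genes the authors deposited counts and FPKM, and for circRNAs counts of junction reads. The authors trimmed reads with cutadapt (1.9 in the submitters' notes), mapped them with Bowtie2 and Hisat2 and assembled them with StringTie. Mapper versions, the caller of circRNAs and the genome build were not given in the sources used here, and no member sequence is printed. FPKM over short transcripts rests on few reads, and a transcript's FPKM also depends on how the assembly shared reads among overlapping transcripts.

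All 12621 lncRNA transcripts with a mean of at least 0.1 FPKM entered a limma 3.58.1 fit with a mean trend on log2(FPKM + 0.1), a scale that understates changes of low transcripts, and counts of 30668 genes with edgeR 4.0.16 (TMM, quasi-likelihood). Benjamini-Hochberg adjustment ran over each whole table. Distances run to the nearest protein-coding span outside the member's own locus. The authors' thresholds were counted beside the adjusted ones. Both fits were tested on simulated data with known changes. At an adjusted p under 0.05, limma recovered 17% of log2 changes of 1 and 73% of log2 changes of 3. The changed transcripts lay above about 1 FPKM, with each transcript's own spread. For edgeR, on well-counted genes with a dispersion set in advance, the shares were 38% and 100%. Small changes would thus often be missed.

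Members named are the 8 with the highest level, 6 per direction with the smallest p among those with groups apart and at least 0.5 FPKM, those absent throughout a group and at 1 FPKM or more in the other, the longest, the most spliced, the steadiest and the least steady, and the 4 nearest to a marker gene, with the genes beside them. Others are said to be chosen after their values were seen, as were the transcripts beside 3′ ends, the members of MSTRG.3005 and MSTRG.3656 and those in the closing section. The members and lists were chosen with earlier results of these data known. Alternatives were a replicate block, robust variances, other scalings, pseudocounts, minima and tools (DESeq2 1.42.0), and each library left out. Coverage in place of FPKM and leaving out members in immunoglobulin regions were added after seeing the data.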

Additional observations from a re-analysis of the deposited data

How the results depend on the processing

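A total of 3 UAC and 3 CON libraries limit these tests, and short members at about 1 FPKM rest on few reads, so a missing call does not show that a transcript was level. Pseudocount 1 lowered the members at the study's thresholds from 183 to 54 (36 higher, 18 lower) and a minimum mean of 1 FPKM, which tests fewer transcripts, to 118 (84 and 34). Members at adjusted p, 0 as reported, were 1 with pseudocount 1 and 2 with no minimum. Groups apart, 559 higher and 207 lower, became 373 and 351 with median-ratio scaling and 353 and 334 with quantile normalization. With coverage, which is not scaled to depth, they were 263 and 397, and the median shift was -0.0345. The cause was not tested. Leaving out each library gave 0 to 2 members at adjusted p, 163 to 205 at the study's thresholds (121 to 147 higher, 37 to 84 lower), a median shift of 0.06 to 0.15, and 754 to 1074 higher and 320 to 504 lower with groups apart, where fewer libraries make such an order easier to reach. For member loci by counts, leaving out each library gave 174 to 211 at the study's thresholds, against 166, and 2 to 4 at adjusted p, against 2, and DESeq2 gave 56 at adjusted p (1.11% of member loci, against 1.22% of all genes). Among the 12 members named for their p, 6 per direction, only MSTRG.12659.1 crossed the adjusted threshold in any of the 13 alternatives run for them, with an adjusted p of 0.0179 at pseudocount 1, and with a replicate block its adjusted p was 0.707. Their direction was set by the rule that chose them.

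With a replicate block 175 members (123 higher, 52 lower) passed the study's thresholds, against 183, and by counts 0 member loci passed the adjusted threshold, against 2, with edgeR adjusted p-values of 0.445 for MSTRG.15267 and 0.295 for MSTRG.3687. The numbers did not pair the libraries: deviations of same-numbered libraries from their group means correlated at -0.01, 0.03 and -0.03 over the members.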

Other observations

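Outside the comparison, 8 members of 1 exon without a strand lay on the Y chromosome, although the labels give female rats. Their means were 1.09 to 1.88 FPKM, and MSTRG.1035.1 (360.0 bases) was at 2.38, 1.29 and 1.54 FPKM in CON and at 2.04, 1.92 and 2.13 FPKM in UAC. The Y-linked genes Ddx3, Eif2s3y and Kdm5d had 0 to 8 reads per library.

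At 11 intervals a member was assembled on each strand, and at 5 of these the paired values differed by at most 1% in 5 or more libraries, so such pairs may share reads and are not counted on as separate measurements. MSTRG.25052.1 and MSTRG.25053.1 (chr7:2224823-2225987) had the same values on both strands, 2.34, 2.75 and 2.72 FPKM in CON and 2.38, 1.85 and 2.43 FPKM in UAC.

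Of 7294 circRNAs in the circRNA file, 20 had both ends inside a member, 29 members in all, with a median of 5 junction reads over the 6 libraries. The most abundant lay in MSTRG.814.1 (chrX:119148586-119154670, 2 exons) where CON had 13, 28 and 19 reads across the junction against 6, 6 and 0 for UAC. The member itself was at 1.71, 2.56 and 2.08 FPKM in CON and at 1.40, 1.35 and 2.04 FPKM in UAC.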
